A study of Mus musculus with 10 samples.

Results

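The 36 autophagy genes described here act outside the step that attaches LC3 to membranes: 5 of the ULK1 initiation complex, 7 of the lipid kinase complex and its regulators, 6 of the PI3P effector, ATG9 and ATG2 group, 6 ATG4 protease and GABARAP-like genes, 9 cargo receptor genes and 3 mitophagy receptor genes. They were taken by name from a list and matched by gene symbol, and all 36 were found among the 53379 genes of the files. All 36 also passed the filter on low counts, which left 14528 genes for testing. RNA was sequenced from dendritic cells of the spleen of C57BL/6 mice aged 16 weeks, in a series on atherogenesis. Dissociated spleens of individual mice were enriched for CD11c on beads, and sorted by flow cytometry as MHC class II high and CD11c high, split by CD11b and CD8. The groups were CD11b KO (Atg16l1 -/-, n = 2), CD11b WT (Atg16l1 +/+, n = 3), CD8 KO (Atg16l1 -/-, n = 2) and CD8 WT (Atg16l1 +/+, n = 3). The part of Atg16l1 that is deleted, the cells in which it is deleted and any promoter that drives a deletion are not given in the labels used here, nor is whether 1 mouse gave both sorted subsets.

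Autophagy encloses cytoplasm in a new membrane that fuses with the lysosome. The ULK1 kinase complex starts it, the class III lipid kinase complex built on BECN1 and PIK3C3 makes the lipid PI3P, and WIPI proteins, ATG9 vesicles and ATG2 lipid transfer proteins extend the membrane. ATG4 proteases trim LC3 and GABARAP proteins before ATG16L1, in a complex with ATG5 and ATG12, directs their attachment to lipid. Receptors such as p62, encoded by Sqstm1, hold cargo to the attached proteins and are themselves degraded with it. In dendritic cells the same machinery is known for its part in the handling of antigen and of phagocytosed material. Only RNA was measured here.

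In all 10 libraries the markers of the subsets contradicted the subset label, so the groups are called libraries labelled CD11b or CD8 and are not given a cell type. The 10 markers of type 1 conventional dendritic cells (cDC1) summed to 9805 to 10640 CPM (counts relative to the library total) in the 5 libraries labelled CD11b and to 2641 to 3024 CPM in the 5 labelled CD8. The 10 markers of type 2 conventional dendritic cells (cDC2) gave sums of 115.1 to 149.7 CPM (label CD11b) and 1320 to 1612 CPM (label CD8). Most of the cDC1 sums came from Wdfy4, at 5375 to 5905 CPM (label CD11b) and 2257 to 2629 CPM (label CD8). Cd8a, which encodes a chain of CD8 itself, had 448 to 578 CPM with the label CD11b and 0.905 to 5.87 CPM with the label CD8. Itgam, the gene for CD11b itself, had 1.58 to 2.73 CPM with the label CD11b and 76.1 to 104 CPM with the label CD8. Atg16l1, the targeted gene, stood at 1.73 to 3.31 CPM in the 4 KO libraries and at 13.3 to 32.7 CPM in the 6 WT libraries, so the genotype labels were matched in each of the 10 libraries. Gene counts ranged from 9467704 to 13768884 per library. RNA of markers listed for other cell types also differed between the labels. The 5 B cell markers summed to 17.2 to 31.4 CPM (CD11b) and to 55.6 to 362 CPM (CD8), where the library CD8 KO 2 was highest. Of these, Ms4a1 was called lower at the label CD11b in KO and was not called in WT (log2 difference 0.22, edgeR adjusted p = 0.705). The 6 red pulp macrophage markers summed to 128 to 170 CPM (CD11b) and to 208 to 346 CPM (CD8), but did not move together. Adgre1, at 2.90 ± 2.19 CPM in CD11b WT and 113 ± 22.5 CPM in CD8 WT (SD, n = 3 each), C1qa and C1qb were called lower at the label CD11b in both genotypes. Hmox1 was called higher in WT, at 74.0 ± 8.18 CPM in CD11b WT and 45.7 ± 7.89 CPM in CD8 WT (SD, n = 3 each), and Spic and Vcam1 were called in neither genotype. The 4 monocyte markers summed to 22.6 to 31.1 CPM (CD11b) and to 47.6 to 87.7 CPM (CD8), where Ly6c2 was called in neither genotype and Ccr2 in WT alone. The 4 plasmacytoid dendritic cell markers summed to 53.3 to 93.1 CPM (CD11b) and to 20.7 to 38.2 CPM (CD8), where Siglech and Ccr9 were called higher in both genotypes and Bst2 and Ly6d in neither. All of the B cell, macrophage, monocyte and plasmacytoid markers had counts. The sums of 5 T cell markers lay between 6.83 and 19.4 CPM and those of 5 erythroid markers between 2.59 and 17.95 CPM, while 5 neutrophil and 3 NK cell markers each stayed under 1.31 CPM, with the NK gene Klra8 at 0 throughout. Whether other cells or the sorted subsets themselves gave this marker RNA was not tested, nor was its part in the results below. In bulk samples fewer cells of a type and less RNA per cell cannot be told apart.

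Levels of the 36 genes lay far apart. Per kilobase of annotated exon, Sqstm1 stood first, at a mean over the 4 groups of 140.3 CPM per kb, and its lowest library (94.9 CPM per kb) was above the highest library of every other member. Uvrag (29.3), Tax1bp1 (27.5) and Vmp1 (25.4 CPM per kb) came next, and their libraries overlapped from each gene to the next. Uvrag encodes a BECN1 partner in the lipid kinase complex, Tax1bp1 a ubiquitin-binding cargo receptor, and Vmp1 a membrane protein of the endoplasmic reticulum that acts with ATG2 and ATG9. Gabarapl1 (19.8), Fundc1 (19.7) and Atg2a (19.7 CPM per kb) followed and also overlapped. At the low end stood the PI3P-binding Wipi1 (0.279 CPM per kb) and the mitophagy receptor Bnip3 (0.473 CPM per kb), behind the ferritin receptor Ncoa4 (1.075), the protease gene Atg4a (1.12) and Gabarapl2 (1.48 CPM per kb). Wipi1 had no count in CD8 KO 2. Apart from the step below Sqstm1, the only neighbours in this order whose libraries did not overlap were Pik3c3 (9.06 CPM per kb), the lipid kinase itself, and Ulk2 (6.31 CPM per kb), a kinase of the initiation complex.

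Levels of some members rest on part of the gene. Atg4a, Ncoa4, Bnip3, Bnip3l, Rb1cc1 and Atg2b each share at least 500 bases at 95% identity or more with another locus, and reads that map to more than 1 place were not counted. The longest such stretches were 2115 bases (99.3% identical) between Atg4a and Atg4a-ps and 1883 bases (100% identical) between Ncoa4 and the pseudogene Gm6768. Bnip3 shares up to 858 bases with AC160336.1, at up to 98.7% identity. The low levels of Atg4a, Ncoa4 and Bnip3 are thus uncertain. Atg4d overlaps Kri1 on the opposite strand, with 2096 counts on its own strand and 3406 on the other over the 10 libraries, and only the first were used. Vmp1 contains the microRNA gene Mir21a on its own strand. Mir21a had 0 counts of its own, but reads that fall on more than 1 gene were given to none, so this does not measure Mir21a. Atg9a shares 1832 bases with Gm29253, which overlaps it on the same strand and had 0 counts. By the same rule, reads on that stretch were given to neither, so the level of Atg9a also rests on part of the gene.

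**Figure D1:**
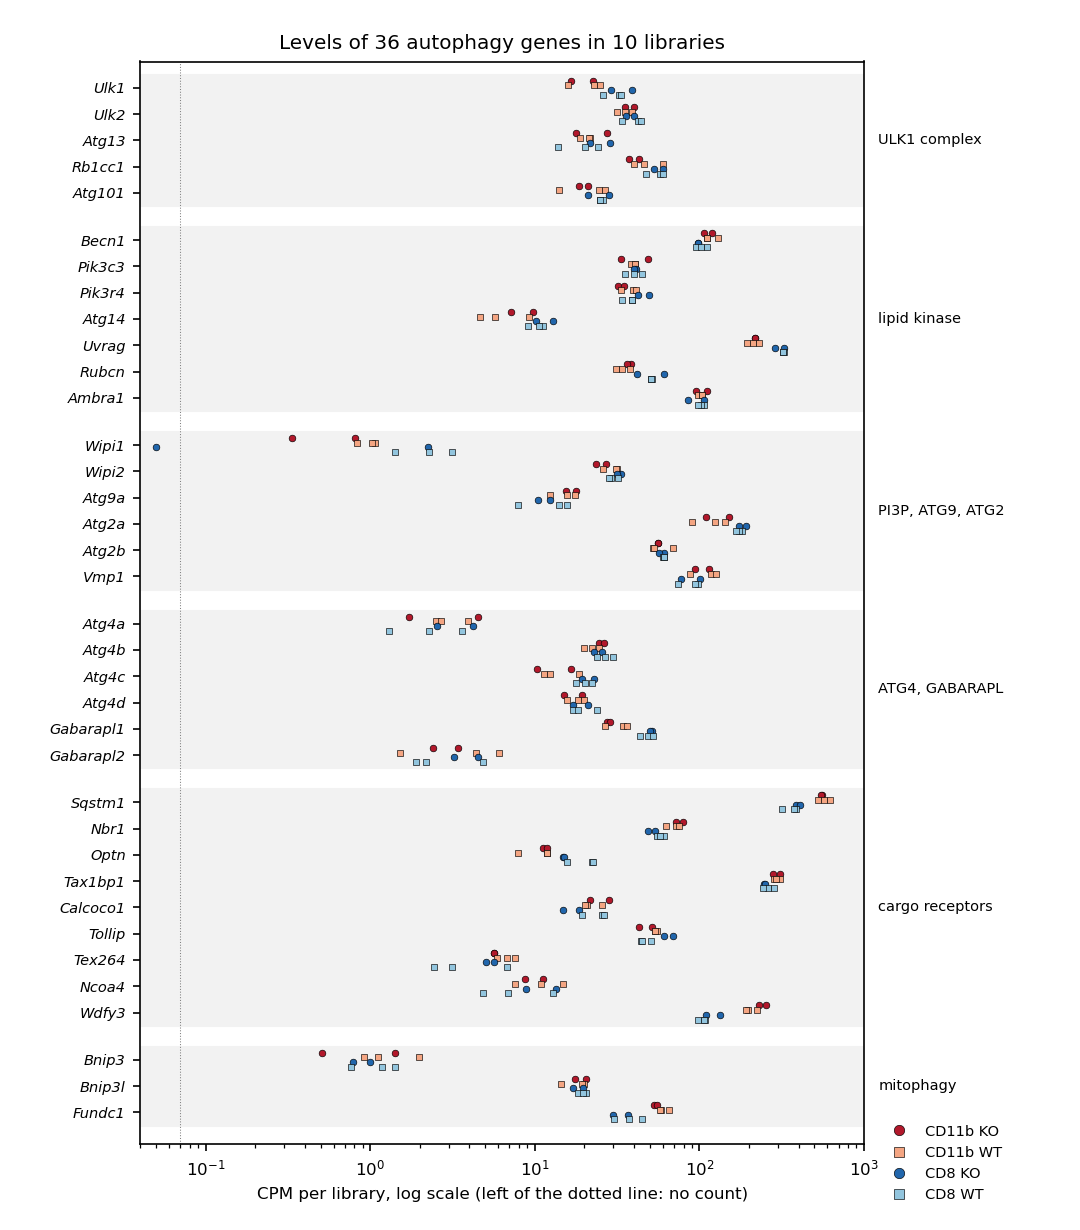
Level of each of the 36 genes in each of the 10 libraries, in CPM on a log axis that is not divided by gene length, ordered by role, with circles for KO and squares for WT. Sqstm1 has the highest mean in every group, and Wipi1 and Bnip3 lie near 1 CPM, with 1 Wipi1 point left of the dotted line where no count was found.

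The first question was whether loss of Atg16l1 goes with a change in the RNA of the rest of the machinery. No member was called in KO against WT, at either label. At the label CD11b, 0 of 36 members had an edgeR adjusted p below 0.05, where 0.145% of all genes tested did, and 1 member had an unadjusted p below 0.05. The CD8 comparison gave 0 of 36 (background 0.145%) with 2 members below 0.05 unadjusted. The average of both KO effects gave 0 of 36 (background 0.289%) with 1, and the difference between the KO effects, CD11b minus CD8, gave 0 of 36 (background 0.0206%) with 2. DESeq2 and limma-voom also called 0 of 36 in each of these 4 comparisons. The median log2 fold change of the members was −0.05 at the label CD11b and 0.00 at the label CD8, against −0.01 and 0.00 over all genes tested. The median size of the members' log2 changes, sign aside, was 0.13 (CD11b) and 0.14 (CD8), against 0.23 for all genes at both labels. The size of a fitted change and the width of its interval depend on a gene's counts. The values over all genes, here and below, were not matched for level.

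The intervals limit what could have been missed. The 95% interval of the log2 fold change lay within 2-fold in either direction for 30 of 36 members at the label CD11b, 29 at the label CD8 and 33 for the average effect, against 50.5%, 51.0% and 60.9% of all genes. Outside it in the average effect were Atg4a, Bnip3 and Wipi1, all of low level. Within a label, Gabarapl2, Tex264, Wipi1, Bnip3 and Atg4a were outside it at both labels, Atg14 at the label CD11b, and Ncoa4 and Optn at the label CD8. These intervals cover the spread between the 10 libraries, and 2 KO mice a group limit them.

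Among the initiation genes, the median log2 change of the 5 was −0.11 at the label CD11b and 0.04 at the label CD8. Rb1cc1, which encodes the scaffold FIP200, had 37.2 and 42.8 CPM in CD11b KO, against 46.2, 40.0 and 60.0 CPM in CD11b WT. In the CD8 libraries it had 53.2 and 60.0 CPM in KO, against 57.4, 59.9 and 47.6 CPM in WT. The KO and WT libraries of Rb1cc1 overlapped at both labels (log2 fold change −0.28 ± 0.17, SE, edgeR adjusted p = 0.838 for CD11b). Atg13, which encodes an adaptor of the complex, had 17.7 and 27.6 CPM in CD11b KO, against 21.7, 18.8 and 21.4 CPM in CD11b WT. At the label CD8 it had 21.5 and 28.6 CPM in KO, against 24.1, 13.8 and 20.1 CPM in WT. These groups overlapped too, and the average KO effect on Atg13 was 0.26 ± 0.18 (SE, edgeR adjusted p = 0.770).

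In the lipid kinase group, the median log2 changes of the 7 genes were 0.04 (CD11b) and 0.00 (CD8). Pik3r4, which encodes the regulatory subunit VPS15, had 32.0 and 34.8 CPM in CD11b KO, against 33.6, 39.7 and 41.3 CPM in CD11b WT. In the CD8 libraries it had 42.3 and 49.3 CPM in KO, against 39.0, 33.7 and 39.0 CPM in WT, and there the groups did not overlap. The difference between its KO effects was −0.49 ± 0.24 (SE, edgeR adjusted p = 0.918), which did not pass the test. Becn1, the core of the complex, averaged 113 ± 9.19 CPM in CD11b KO (SD, n = 2) and 116.9 ± 11.1 CPM in CD11b WT (SD, n = 3). In CD8 KO it averaged 97.7 ± 0.147 CPM (SD, n = 2) and in CD8 WT 103 ± 8.19 CPM (SD, n = 3). The differences of Becn1 were smaller than 1 SD of the WT libraries at both labels.

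The membrane group of 6 genes had medians of −0.07 (CD11b) and −0.02 (CD8), the ATG4 and GABARAP-like group −0.07 and 0.07. ATG4 enzymes trim the GABARAP-like proteins, which are then attached to lipid in the ATG16L1 step. Atg4b, the protease gene with the most counts of the 4, averaged 25.5 ± 1.21 CPM in CD11b KO (SD, n = 2) and 22.2 ± 2.43 CPM in CD11b WT (SD, n = 3). At the label CD8 it averaged 24.3 ± 1.80 CPM in KO (SD, n = 2) and 26.8 ± 3.06 CPM in WT (SD, n = 3). The log2 changes of Atg4b had opposite signs at the labels, 0.20 and −0.15, and neither passed the test (edgeR adjusted p = 0.925 and 0.990).

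Cargo receptors held the 3 smallest p-values of the members at the label CD8. Sqstm1, whose protein is known to build up when autophagy is blocked, had 559 and 545 CPM in CD11b KO, against 526, 620.1 and 569 CPM in CD11b WT. In the CD8 libraries Sqstm1 had 388 and 408 CPM in KO, against 388, 377 and 318 CPM in WT. The genotypes overlapped at both labels, with 95% intervals of the log2 change of −0.26 to 0.16 (CD11b) and −0.07 to 0.35 (CD8). The transcript was thus measured within narrow limits, while the protein was not measured.

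Wdfy3, which encodes the scaffold ALFY for the removal of protein aggregates, had 253 and 229 CPM in CD11b KO, against 224, 196 and 191 CPM in CD11b WT. At the label CD8 it had 134 and 109.9 CPM in KO, against 98.0, 108 and 106 CPM in WT. All KO libraries of Wdfy3 lay above all WT libraries of the same label, and it was the only 1 of the 36 members apart in the same direction at both labels, as were 3.32% of all genes. Its average KO effect was 0.23 ± 0.08 on the log2 scale (SE, edgeR adjusted p = 0.387), with an interval of 0.06 to 0.40, and did not pass the test. Over the members, KO and WT did not overlap for 5 of 36 at the label CD11b, where 20.5% of all genes were apart, and for 6 of 36 at the label CD8, where 24.0% were.

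Tollip (ENSMUSG00000025139, chromosome 7, 141874813 to 141918507, minus strand), an adaptor that binds ubiquitin and Toll-like receptors, had 43.1 and 51.7 CPM in CD11b KO, against 53.5, 55.5 and 53.5 CPM in CD11b WT. In the CD8 libraries it had 61.1 and 68.9 CPM in KO, against 44.3, 50.8 and 44.6 CPM in WT. The KO libraries were thus below WT at the label CD11b and above WT at the label CD8. The log2 changes were −0.19 ± 0.15 (SE, edgeR adjusted p = 0.884) and 0.48 ± 0.15 (SE, edgeR adjusted p = 0.362), and the difference between them, −0.67 ± 0.21 (SE), had an edgeR adjusted p of 0.829. Calcoco1, a receptor for the endoplasmic reticulum and Golgi, had 21.7 and 28.3 CPM in CD11b KO, against 20.7, 20.3 and 25.4 CPM in CD11b WT. At the label CD8 it had 14.7 and 18.6 CPM in KO, against 25.7, 19.2 and 26.3 CPM in WT. The CD8 KO libraries of Calcoco1 were below all CD8 WT libraries (log2 fold change −0.51 ± 0.23, SE, edgeR adjusted p = 0.729), which did not pass the test. Beside both genes, the red pulp macrophage markers summed to 341 to 346 CPM in CD8 KO and to 208 to 280.3 CPM in CD8 WT. The monocyte markers summed to 47.6 to 52.6 CPM in CD8 KO and to 63.1 to 87.7 CPM in CD8 WT, and the B cell markers to 78.9 to 361.7 and to 55.6 to 130.7 CPM. None of these markers was called in CD8 KO against CD8 WT. Each B cell marker was higher on average in CD8 KO, with log2 changes of 1.06 (Cd79b) to 1.63 (Cd79a), and was highest in the library CD8 KO 2. The macrophage and monocyte lists did not move as a whole. Log2 changes were −0.02 for Adgre1 against 0.99 for C1qa, and 0.24 for Ly6c2 and 0.55 for Fcgr1 against −1.34 for Fn1. Among the cDC1 and cDC2 markers, Irf4 was called higher in CD8 KO than in CD8 WT (log2 fold change 0.67, edgeR adjusted p = 0.0269). Cd300a was called lower in CD11b KO than in CD11b WT (−1.02, edgeR adjusted p = 0.007). No other marker of these subsets was called in KO against WT at either label. The part of all these markers in Tollip and Calcoco1 was not tested.

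Mitophagy receptors, which tether mitochondria to the forming membrane, had medians of −0.16 (CD11b) and −0.17 (CD8) over 3 genes. Fundc1 averaged 54.1 ± 1.60 CPM in CD11b KO (SD, n = 2) and 60.5 ± 4.41 CPM in CD11b WT (SD, n = 3), with libraries that did not overlap. At the label CD8 it averaged 33.4 ± 4.85 CPM in KO (SD, n = 2) and 37.4 ± 7.15 CPM in WT (SD, n = 3), with libraries that did. Its average KO effect was −0.16 ± 0.12 on the log2 scale (SE, edgeR adjusted p = 0.789).

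**Figure D2:**
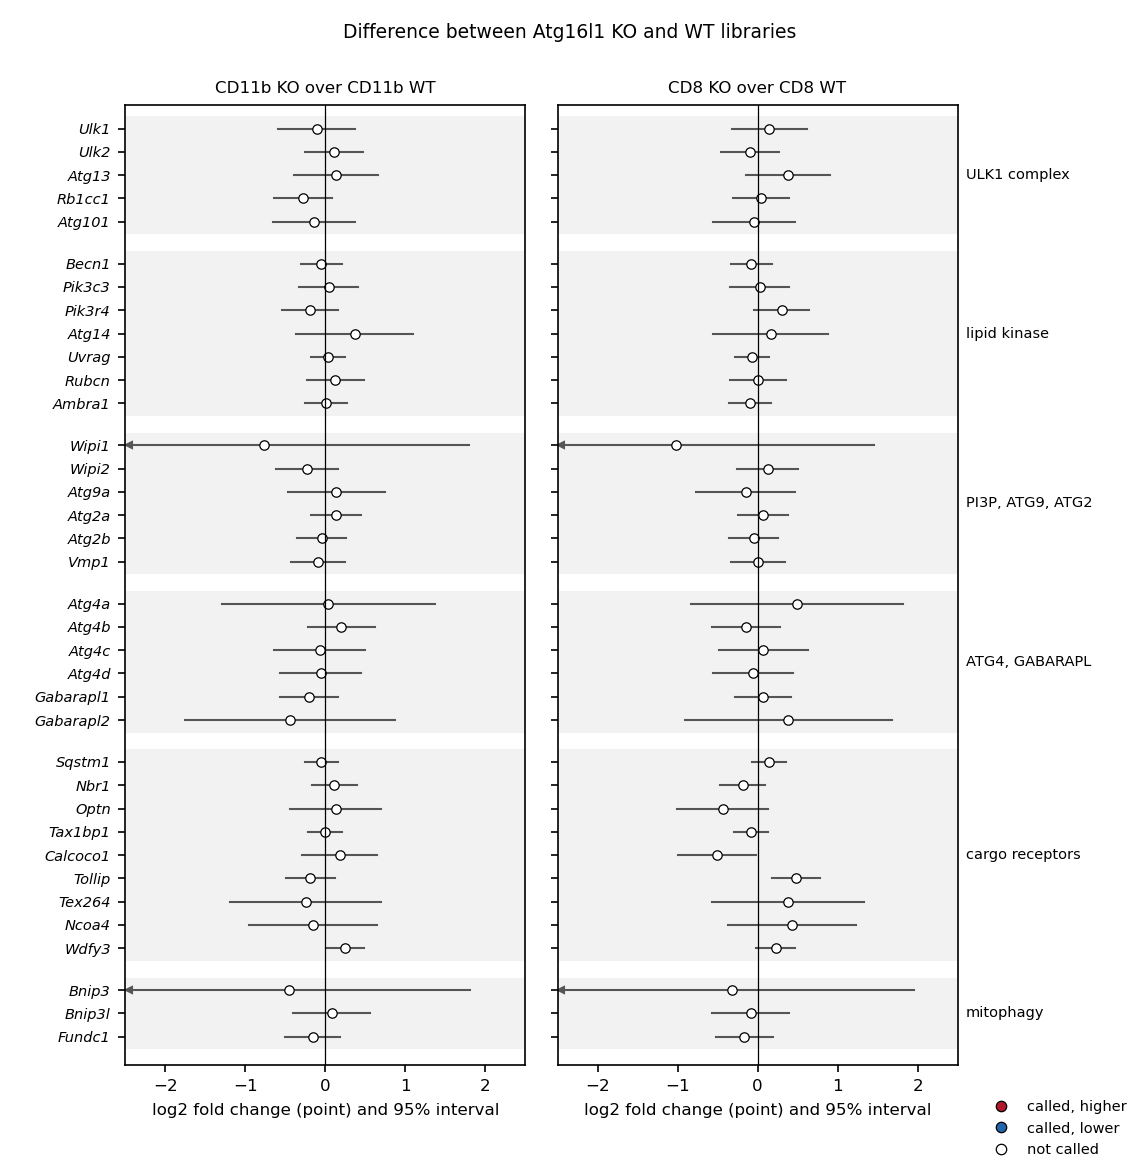
Log2 fold change of KO over WT for each member (points) with its 95% interval (lines), at the label CD11b on the left and the label CD8 on the right, and arrows where an interval leaves the axis. No point is filled, since 0 of 36 members were called at either label, and the widest lines belong to the low genes Wipi1 and Bnip3.

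The second question was how the same genes differ between the sorted subsets. Of the 36 members, 6 differed in both genotypes and in the same direction. Wdfy3, Sqstm1 and Fundc1, genes for receptors and scaffolds of selective autophagy, were higher in the libraries labelled CD11b. Uvrag, Atg2a and Gabarapl1, genes for the lipid kinase, for lipid transfer and for a GABARAP-like protein, were lower in them. In KO, 9 of 36 members were called (4 higher and 5 lower at the label CD11b), where 22.8% of all genes were called, 10.3% higher and 12.5% lower. In WT, 8 of 36 were called (3 higher and 5 lower), where 29.5% of all genes were called, 13.8% higher and 15.7% lower. In neither genotype does the count of members stand out from that background. The members' median log2 difference was −0.13 in KO and −0.01 in WT, against −0.01 and 0.00 over all genes, and their median size was 0.39 in KO and 0.28 in WT, against 0.53 and 0.52. The libraries of both labels did not overlap for 21 of 36 members in KO, against 58.7% of all genes, and for 12 of 36 in WT, against 41.5%. Both comparisons lie beside the differences in B cell, macrophage, monocyte and plasmacytoid markers given above. No member was called for a difference between its KO effects, which is also the test of whether the subset difference depends on genotype, so calls in 1 genotype alone do not show that the genotypes differ.

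Wdfy3 (ENSMUSG00000043940, chromosome 5, 101832956 to 102069921, minus strand) had the largest difference of the 6. With the CPM given above, the lowest library labelled CD11b (191 CPM) was above the highest labelled CD8 (134 CPM). The log2 difference was 0.98 ± 0.13 in KO (SE, edgeR adjusted p = 2.57e-06) and 0.97 ± 0.11 in WT (SE, edgeR adjusted p = 1.05e-07). Sqstm1 (ENSMUSG00000015837, chromosome 11, 50199366 to 50210827, minus strand) ranged from 526 to 620.1 CPM at the label CD11b and from 318 to 408 CPM at the label CD8. Its log2 difference was 0.47 ± 0.11 in KO (SE, edgeR adjusted p = 0.00252) and 0.66 ± 0.09 in WT (SE, edgeR adjusted p = 3.23e-06). Both genes kept these calls in each of 10 fits that left out 1 library, in KO and in WT.

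Fundc1 (ENSMUSG00000025040, chromosome X, 17556564 to 17572325, minus strand), which encodes a receptor of the outer mitochondrial membrane that answers to low oxygen, had 53.0 and 55.2 CPM in CD11b KO, against 36.8 and 30.0 CPM in CD8 KO. In WT it had 58.6, 57.4 and 65.6 CPM at the label CD11b, against 30.2, 44.5 and 37.5 CPM at the label CD8. All libraries labelled CD11b were above all labelled CD8. The log2 difference was 0.70 ± 0.19 in KO (SE, edgeR adjusted p = 0.00752) and 0.69 ± 0.15 in WT (SE, edgeR adjusted p = 0.000994). Without CD8 KO 2 the KO call ended (edgeR adjusted p = 0.104, with 0.00447 the lowest over the 10 fits that left out 1 library). The other mitophagy receptor genes were not called. Bnip3l averaged 18.9 ± 2.09 CPM in CD11b KO and 18.3 ± 1.74 CPM in CD8 KO (SD, n = 2 each), and 17.95 ± 3.00 CPM in CD11b WT and 19.4 ± 1.018 CPM in CD8 WT (SD, n = 3 each).

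Uvrag (ENSMUSG00000035354, chromosome 7, 98885021 to 99141141, minus strand), a BECN1 partner that is known to act in endosome and autophagosome maturation, had 216 and 218 CPM in CD11b KO, against 329 and 287 CPM in CD8 KO. In WT it had 229, 211 and 195 CPM at the label CD11b, against 327, 321 and 321 CPM at the label CD8. The groups did not overlap, with 95% intervals of the log2 difference of −0.74 to −0.27 in KO and −0.80 to −0.42 in WT. The differences were −0.51 ± 0.11 in KO (SE, edgeR adjusted p = 0.00141) and −0.61 ± 0.09 in WT (SE, edgeR adjusted p = 1.1e-05), and no fit that left out 1 library ended either call.

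Rubcn (ENSMUSG00000035629, chromosome 16, 32821703 to 32877766, minus strand), which encodes Rubicon, an inhibitor of the UVRAG form of the kinase that also acts in LC3-associated phagocytosis, had 38.4 and 36.5 CPM in CD11b KO, against 41.8 and 60.8 CPM in CD8 KO. In WT it had 31.1, 37.8 and 34.0 CPM at the label CD11b, against 51.1, 51.8 and 50.8 CPM at the label CD8. The libraries labelled CD11b were lower in both genotypes, and only the WT difference was called. It was −0.45 ± 0.19 in KO (SE, edgeR adjusted p = 0.0889) and −0.58 ± 0.15 in WT (SE, edgeR adjusted p = 0.00524). The other 5 genes of the lipid kinase group were called in neither genotype. Pik3c3, the catalytic subunit, had log2 differences near 0, with 41.1 ± 10.9 CPM in CD11b KO and 40.8 ± 0.780 CPM in CD8 KO (SD, n = 2 each), and 39.9 ± 1.53 CPM in CD11b WT and 40.1 ± 4.87 CPM in CD8 WT (SD, n = 3 each). Becn1 had differences of 0.21 ± 0.13 in KO and 0.18 ± 0.11 in WT (SE), with edgeR adjusted p = 0.315 and 0.241.

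Of the initiation genes only Ulk1, the kinase that starts the pathway, was called, in KO. Ulk1 (ENSMUSG00000029512, chromosome 5, 110784488 to 110810097, minus strand) had 16.7 and 22.5 CPM in CD11b KO, against 29.0 and 38.7 CPM in CD8 KO. The WT libraries had 22.9, 15.9 and 24.7 CPM at the label CD11b, against 32.5, 26.0 and 33.2 CPM at the label CD8. No library labelled CD11b reached the lowest labelled CD8. The log2 difference was −0.79 ± 0.25 in KO (SE, edgeR adjusted p = 0.0257) and −0.53 ± 0.21 in WT (SE, edgeR adjusted p = 0.0562). The KO call ended without CD11b KO 1 (edgeR adjusted p = 0.219) and without CD8 KO 2 (0.263), and the lowest over these fits was 0.0132. Ulk2, its paralog, had −0.19 ± 0.16 in WT (SE, edgeR adjusted p = 0.415) and was not called in KO.

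Atg2a (ENSMUSG00000024773, chromosome 19, 6241668 to 6262335, plus strand), which encodes a lipid transfer protein, had 151 and 109.5 CPM in CD11b KO, against 173 and 191 CPM in CD8 KO. Among WT libraries there were 142, 90.4 and 124 CPM at the label CD11b, against 181, 173 and 167 CPM at the label CD8. The labels did not overlap, but the libraries labelled CD11b were spread more widely (SD 29.1 CPM in KO and 26.2 CPM in WT, against 12.4 and 7.37 CPM at the label CD8). The log2 difference was −0.49 ± 0.17 in KO (SE, edgeR adjusted p = 0.0375) and −0.55 ± 0.14 in WT (SE, edgeR adjusted p = 0.00309). The KO call ended without CD11b KO 2 (edgeR adjusted p = 0.390, log2 difference −0.27), without CD8 KO 2 (0.219), without CD8 KO 1 (0.0689) and without CD8 WT 2 (0.0645), and the lowest over these fits was 0.0102. Its paralog Atg2b averaged 56.2 ± 0.0249 CPM in CD11b KO and 58.7 ± 3.07 CPM in CD8 KO (SD, n = 2 each), and 58.0 ± 9.69 CPM in CD11b WT and 60.7 ± 0.490 CPM in CD8 WT (SD, n = 3 each). Atg2b was called in neither genotype.

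Gabarapl1 (ENSMUSG00000030161, chromosome 6, 129533160 to 129542346, plus strand), which encodes a protein that is attached to lipid as LC3 is, had 27.6 and 28.8 CPM in CD11b KO, against 51.5 and 49.7 CPM in CD8 KO. WT libraries had 34.3, 36.5 and 26.5 CPM at the label CD11b, against 48.9, 52.3 and 43.5 CPM at the label CD8. The groups did not overlap in either genotype. The log2 difference was −0.85 ± 0.19 in KO (SE, edgeR adjusted p = 0.00162) and −0.57 ± 0.15 in WT (SE, edgeR adjusted p = 0.00597). Gabarap, its relative outside the 36, went the other way, at 149 and 182 CPM in CD11b KO, against 117 and 112 CPM in CD8 KO, a log2 difference of 0.53 ± 0.13 (SE, edgeR adjusted p = 0.00422), and 0.80 ± 0.11 in WT (SE, edgeR adjusted p = 2.72e-06). The 4 ATG4 genes were called in neither genotype.

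Cargo receptors differed in both directions. Optn (ENSMUSG00000026672, chromosome 2, 5020642 to 5064051, minus strand), which encodes a ubiquitin receptor for mitochondria and bacteria, had 11.2 and 11.8 CPM in CD11b KO, against 14.7 and 15.1 CPM in CD8 KO. The values in WT were 11.8, 11.9 and 7.91 CPM at the label CD11b, against 22.4, 22.6 and 15.6 CPM at the label CD8. All libraries labelled CD11b were lower, and the difference was called in WT (−0.94 ± 0.24, SE, edgeR adjusted p = 0.00484) and not in KO (−0.37 ± 0.30, SE, edgeR adjusted p = 0.450). The difference between its KO effects was 0.56 ± 0.39 (SE, edgeR adjusted p = 0.946).

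Nbr1 (ENSMUSG00000017119, chromosome 11, 101552149 to 101581951, plus strand), a ubiquitin receptor related to p62, had 71.9 and 78.9 CPM in CD11b KO, against 53.6 and 48.4 CPM in CD8 KO. Its WT values were 72.4, 62.6 and 74.8 CPM at the label CD11b, against 61.2, 55.1 and 57.9 CPM at the label CD8. The libraries labelled CD11b were higher in both genotypes, with a call in KO (0.56 ± 0.15, SE, edgeR adjusted p = 0.00713) and none in WT (0.27 ± 0.12, SE, edgeR adjusted p = 0.109). Its KO call ended without CD11b KO 2 (edgeR adjusted p = 0.0679) and without CD8 KO 2 (0.0778), and the lowest over these fits was 0.00532. Tollip, with the CPM given above, was lower at the label CD11b in KO (−0.45 ± 0.16, SE, edgeR adjusted p = 0.0445) and had 0.22 ± 0.13 in WT (SE, edgeR adjusted p = 0.242). The KO call on Tollip ended in 5 of the 10 fits that left out 1 library, those without CD11b KO 1 (edgeR adjusted p = 0.300), CD8 KO 2 (0.275), CD8 KO 1 (0.0694), CD11b WT 3 (0.0529) and CD8 WT 2 (0.0501), and the lowest was 0.0405. It also ended with no filter on low counts (0.0953), with counts taken without regard to strand (0.0532) and with a fit to the libraries compared alone (0.0525). Tax1bp1, second to Sqstm1 among the receptors per kilobase, had 294 ± 19.0 CPM in CD11b KO and 248 ± 2.21 CPM in CD8 KO (SD, n = 2 each), and 295 ± 13.4 CPM in CD11b WT and 262 ± 20.7 CPM in CD8 WT (SD, n = 3 each). It was called in neither genotype (edgeR adjusted p = 0.121 in KO and 0.168 in WT).

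The library CD8 KO 2 decides part of the KO count. Without it, 4 of 36 members were called in KO in place of 9, and these were Wdfy3, Sqstm1, Uvrag and Gabarapl1. The share of all genes called in KO was 17.4% without CD8 KO 2, against 22.8% with all libraries, so calls were fewer over all genes too. Without CD8 KO 1 it was 16.7%, with 8 of 36 members called. The 8 calls in WT each stayed below an adjusted p of 0.05 in the 10 fits that left out 1 library.

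Of the 25 members called in neither genotype, the larger gaps between labels lay among genes of low or middle level. Atg14, which directs the lipid kinase to autophagy, averaged 8.43 ± 1.78 CPM in CD11b KO and 11.5 ± 1.83 CPM in CD8 KO (SD, n = 2 each), and 6.52 ± 2.39 CPM in CD11b WT and 10.3 ± 1.06 CPM in CD8 WT (SD, n = 3 each). Atg4c, an ATG4 protease gene, averaged 13.5 ± 4.47 CPM in CD11b KO and 21.04 ± 2.39 CPM in CD8 KO (SD, n = 2 each), and 14.1 ± 3.89 CPM in CD11b WT and 20.04 ± 2.23 CPM in CD8 WT (SD, n = 3 each). Both were lower on average at the label CD11b in both genotypes without passing the test (edgeR adjusted p = 0.474 in KO and 0.133 in WT for Atg14, 0.137 and 0.131 for Atg4c). Ambra1, a regulator of BECN1, had group means between 95.95 and 102.8 CPM, at 102.7 ± 10.8 CPM in CD11b KO and 95.95 ± 15.6 CPM in CD8 KO (SD, n = 2 each), and 101.9 ± 2.84 CPM in CD11b WT and 102.8 ± 4.42 CPM in CD8 WT (SD, n = 3 each). The 95% interval of the log2 difference lay within 2-fold for 22 of 36 members in KO and 25 in WT, against 34.3% and 39.0% of all genes, and among those outside it in both genotypes were the low genes Wipi1, Bnip3, Atg4a, Gabarapl2, Ncoa4 and Tex264.

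**Figure D3:**
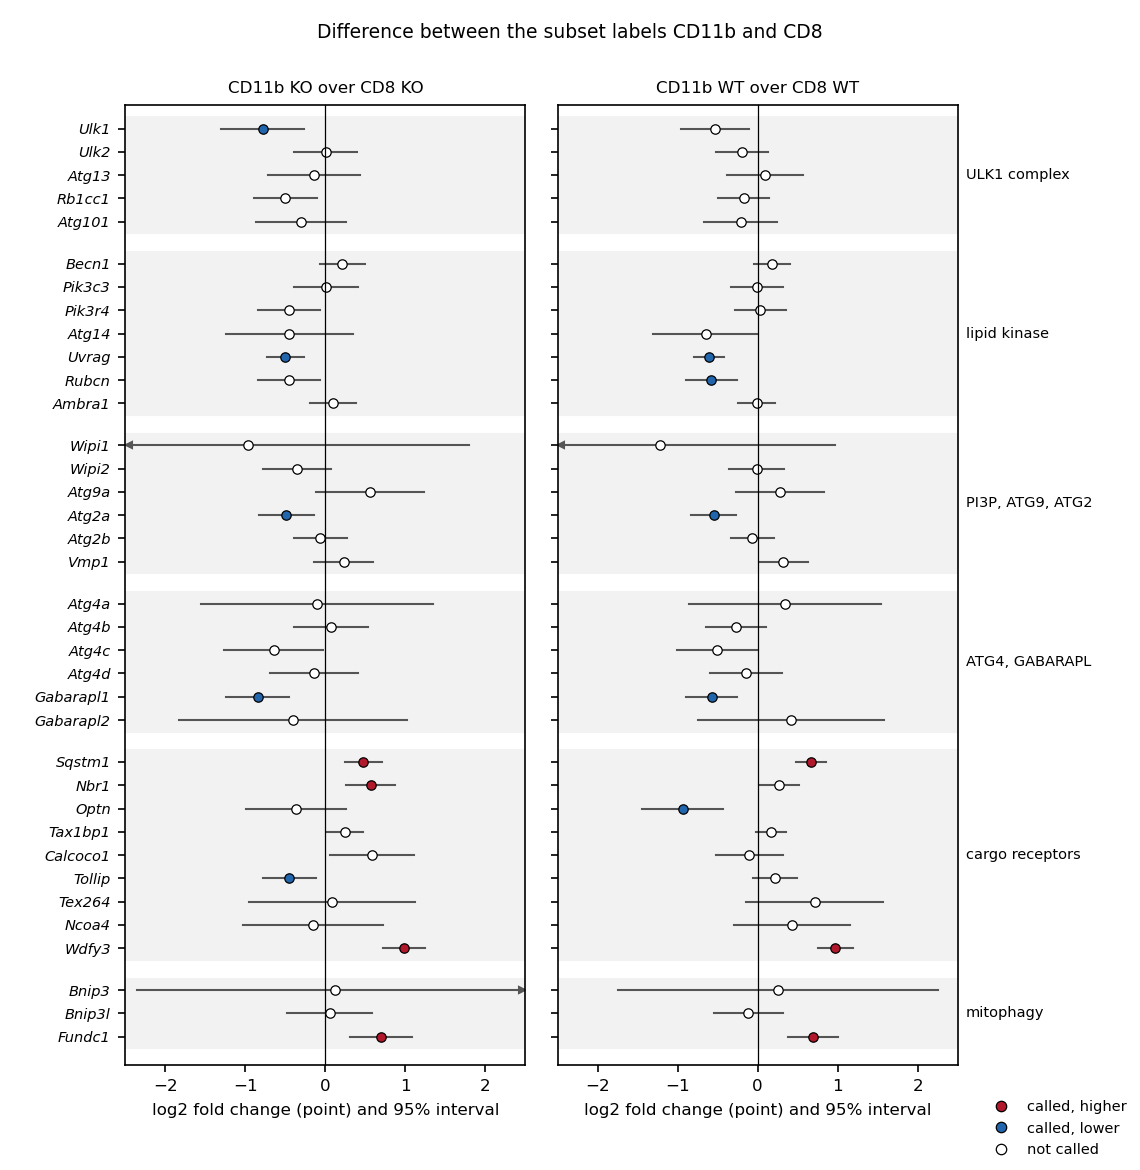
Log2 difference of the label CD11b over the label CD8 for each member (points) with its 95% interval (lines), in KO on the left and WT on the right, with red for called higher, blue for called lower and white for not called. In both panels Wdfy3, Sqstm1 and Fundc1 are red and Uvrag, Atg2a and Gabarapl1 are blue.

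**Figure D4:**
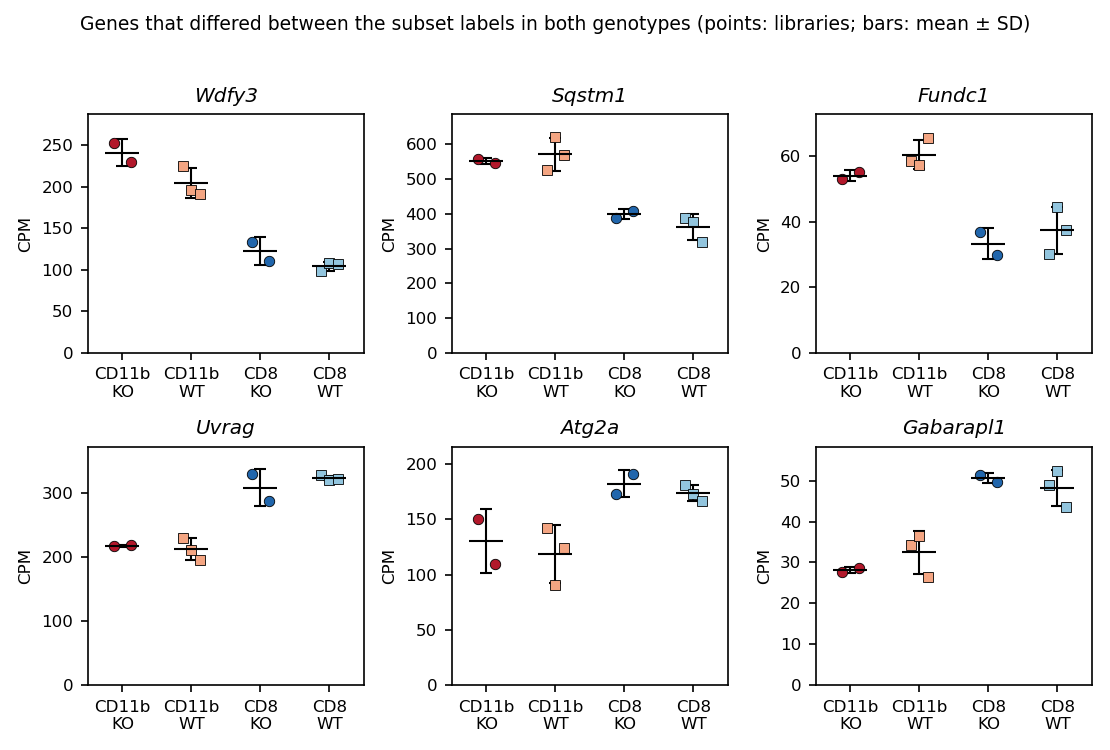
CPM of the 6 genes called in both genotypes, on axes that start at 0, with a point for each library and the mean ± SD of the group (n = 2 for KO, n = 3 for WT). In each panel the 5 libraries labelled CD11b lie wholly above or wholly below the 5 labelled CD8. KO and WT of a label overlap, except for Wdfy3 at both labels and Fundc1 at the label CD11b.

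The promoters of 4 of these 6 genes are printed because the genes split by direction and the sequences show what their starts share. They are RefSeq promoters on GRCm38.p6, from 250 bases before to 50 bases after a start in RefSeq, and each of the 4 windows holds the start of the gene given above. They run 5′ to 3′ on the gene's strand, and capitals mark each GGGCGG or its reverse complement, known as the GC box. Sqstm1 lies at chr11:50210771-50211070 (minus strand), Uvrag at chr7:99141095-99141394 (minus strand), Atg2a at chr19:6241418-6241717 (plus strand) and Gabarapl1 at chr6:129532942-129533241 (plus strand). Wdfy3 and Fundc1 are named only.
Sqstm1: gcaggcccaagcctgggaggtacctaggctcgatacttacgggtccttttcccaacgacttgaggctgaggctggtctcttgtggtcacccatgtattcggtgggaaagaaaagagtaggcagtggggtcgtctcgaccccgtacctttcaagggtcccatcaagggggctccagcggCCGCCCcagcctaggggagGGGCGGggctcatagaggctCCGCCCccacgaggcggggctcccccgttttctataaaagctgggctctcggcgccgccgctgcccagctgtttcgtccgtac
Uvrag: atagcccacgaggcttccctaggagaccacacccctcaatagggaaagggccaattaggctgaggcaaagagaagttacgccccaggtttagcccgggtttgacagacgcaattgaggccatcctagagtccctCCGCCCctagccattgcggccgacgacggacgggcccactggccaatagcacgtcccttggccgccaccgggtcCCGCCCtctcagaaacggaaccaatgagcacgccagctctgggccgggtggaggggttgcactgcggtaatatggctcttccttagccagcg
Atg2a: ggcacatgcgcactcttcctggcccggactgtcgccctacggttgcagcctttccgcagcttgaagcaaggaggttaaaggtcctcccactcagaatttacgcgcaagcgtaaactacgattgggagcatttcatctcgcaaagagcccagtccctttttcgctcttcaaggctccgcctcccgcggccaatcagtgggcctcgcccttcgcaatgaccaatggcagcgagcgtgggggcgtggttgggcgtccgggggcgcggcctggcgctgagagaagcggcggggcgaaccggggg
Gabarapl1: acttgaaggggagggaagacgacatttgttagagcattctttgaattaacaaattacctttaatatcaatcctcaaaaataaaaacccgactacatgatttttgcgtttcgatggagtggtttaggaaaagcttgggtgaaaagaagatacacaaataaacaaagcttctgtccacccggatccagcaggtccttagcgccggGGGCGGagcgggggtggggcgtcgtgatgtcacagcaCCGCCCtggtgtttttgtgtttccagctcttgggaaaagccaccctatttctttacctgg
Sqstm1 held 3 GC boxes, Uvrag 2 and Gabarapl1 2, none overlapping another, and Atg2a held none in this window. The motif was thus in the window of Sqstm1, higher at the label CD11b, and in those of Uvrag and Gabarapl1, which were lower. The G and C content was 63.3% in Sqstm1, 61.7% in Uvrag, 63.3% in Atg2a and 46.3% in Gabarapl1, against a median of 52.7% over all promoters.

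Promoters were found for 31 of the 36 members. For 7 of the 31, Fundc1 among them, no window holds the start of the gene in the annotation of the counts, so the shares below describe RefSeq windows. On either strand, the GC box GGGCGG was in a window of 71.0% of these 31 genes. It was in 67.4% of the 10049 genes tested that had a promoter and in 38.2% of all 27025 genes with a promoter. The palindrome CACGTG, the core of the element bound by TFEB, was in 9.68% of the members (Atg14, Bnip3 and Rubcn), against 11.6% of genes tested and 8.09% of all genes with a promoter. TGACNNNGC, the core of the antioxidant response element, was in 16.1% of the members, against 16.8% of genes tested and 13.99% of all genes with a promoter. For none of the 3 motifs was the members' share far from that of the genes tested. The motifs and the promoters shown were chosen after the values were seen, and a match is a description of letters only.

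The genes around the 36 in the pathway were taken from 7 further lists. Between the labels, the list counts stand beside 10.3% (KO) and 13.8% (WT) of all genes called higher with CD11b, and 12.5% (KO) and 15.7% (WT) called lower, and no list was tested as a whole. In KO against WT, Atg16l1 itself was the only gene of these lists called, with a log2 fold change of −3.27 at the label CD11b (edgeR adjusted p = 9.96e-05) and −2.79 at the label CD8 (edgeR adjusted p = 0.00132).

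Of 10 LC3 conjugation genes, 3 were higher at the label CD11b in KO and none lower, and 3 were higher and 1 lower in WT. Atg3, which encodes the E2-like enzyme that hands LC3 to lipid, had 112 and 125 CPM in CD11b KO, against 71.7 and 78.0 CPM in CD8 KO, with log2 differences of 0.66 in both genotypes (edgeR adjusted p = 0.00056 in KO and 4.14e-05 in WT). Atg16l2, the paralog of Atg16l1, had 34.8 and 47.2 CPM in CD11b KO, against 23.1 and 24.9 CPM in CD8 KO (0.77, edgeR adjusted p = 0.00696), and 0.84 in WT (0.000434). Atg5 was called lower in WT (−0.64, edgeR adjusted p = 0.0283) and not in KO (−0.20, edgeR adjusted p = 0.687), and the difference between its KO effects, 0.44 ± 0.34 (SE, edgeR adjusted p = 0.950), did not pass the test. The list median was −0.0045 in KO and 0.09 in WT.

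Of 14 genes for fusion with the lysosome, 4 were higher at the label CD11b and 1 lower in KO, and 6 were higher and none lower in WT, with list medians of 0.24 in KO and 0.42 in WT. Over all genes tested 10.3% were higher and 12.5% lower in KO, and 13.8% higher and 15.7% lower in WT. Vps18, a subunit of the HOPS tether, had 91.5 and 92.9 CPM in CD11b KO, against 61.9 and 67.0 CPM in CD8 KO (0.52, edgeR adjusted p = 0.00668), and 0.71 in WT (2.48e-05). Epg5, a tether of autophagosomes, had differences of 0.55 in KO (edgeR adjusted p = 0.00581) and 0.62 in WT (0.000181). Stx17, the autophagosome SNARE, had 0.93 in KO (edgeR adjusted p = 0.00151) and 0.73 in WT (0.00159). Vps33a, also of the HOPS tether, was called lower in KO (−0.55, edgeR adjusted p = 0.0274) and not in WT (−0.02, edgeR adjusted p = 0.959), so the list did not move as 1.

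Of 10 transcription factor genes of the pathway, 4 were lower and none higher in KO, and 3 lower and none higher in WT, with list medians of −0.29 and −0.13. Tfeb, a regulator of lysosome and autophagy genes, had 13.5 and 19.3 CPM in CD11b KO, against 66.7 and 76.8 CPM in CD8 KO. In WT it had 25.3, 15.4 and 17.2 CPM at the label CD11b, against 85.0, 80.5 and 79.5 CPM at the label CD8. The groups were far apart, with log2 differences of −2.12 in KO (edgeR adjusted p = 6.45e-08) and −2.08 in WT (edgeR adjusted p = 1.57e-09). Foxo3 was lower as well (−1.07 in KO, edgeR adjusted p = 6.13e-07, and −1.21 in WT, 2.3e-09), as was Tfe3 (−0.53 in KO, edgeR adjusted p = 0.00506, and −0.38 in WT, 0.00905). Beside these values, the 36 members had 4 called higher and 5 lower in KO, and 3 higher and 5 lower in WT.

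Of 10 other initiation and lipid transfer genes, none was called in KO, where 2 had an unadjusted p below 0.05, and 1 was higher and 1 lower in WT. Atg9b, the paralog of Atg9a, was higher in WT (2.56, edgeR adjusted p = 0.00167), with 5.47, 3.70 and 7.91 CPM at the label CD11b, against 0.324, 0.724 and 1.80 CPM at the label CD8. In KO Atg9b had 5.45 and 6.33 CPM at the label CD11b, against 1.32 and 1.83 CPM at the label CD8, a difference in the same direction (1.90, edgeR adjusted p = 0.0508). Bcl2, which encodes an inhibitor of BECN1, was called lower in WT (−0.81, edgeR adjusted p = 0.0249) and not in KO (−0.61, edgeR adjusted p = 0.204). Atg9a, the member, was not called, at 16.7 ± 1.62 CPM in CD11b KO and 11.3 ± 1.35 CPM in CD8 KO (SD, n = 2 each).

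Of 13 other receptor and mitophagy genes tested, 2 were higher and 3 lower in KO, and 3 were higher and 1 lower in WT. Stbd1, which encodes a glycogen-binding receptor, was higher (1.66 in KO, edgeR adjusted p = 0.0286, and 2.73 in WT, 4.45e-05), and so was Phb2, a receptor of the inner mitochondrial membrane (0.48 in KO, edgeR adjusted p = 0.0274, and 0.72 in WT, 8.07e-05). Atl3, a receptor for tubules of the endoplasmic reticulum, was lower (−0.65 in KO, edgeR adjusted p = 0.00189, and −0.49 in WT, 0.00305).

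**Figure D5:**
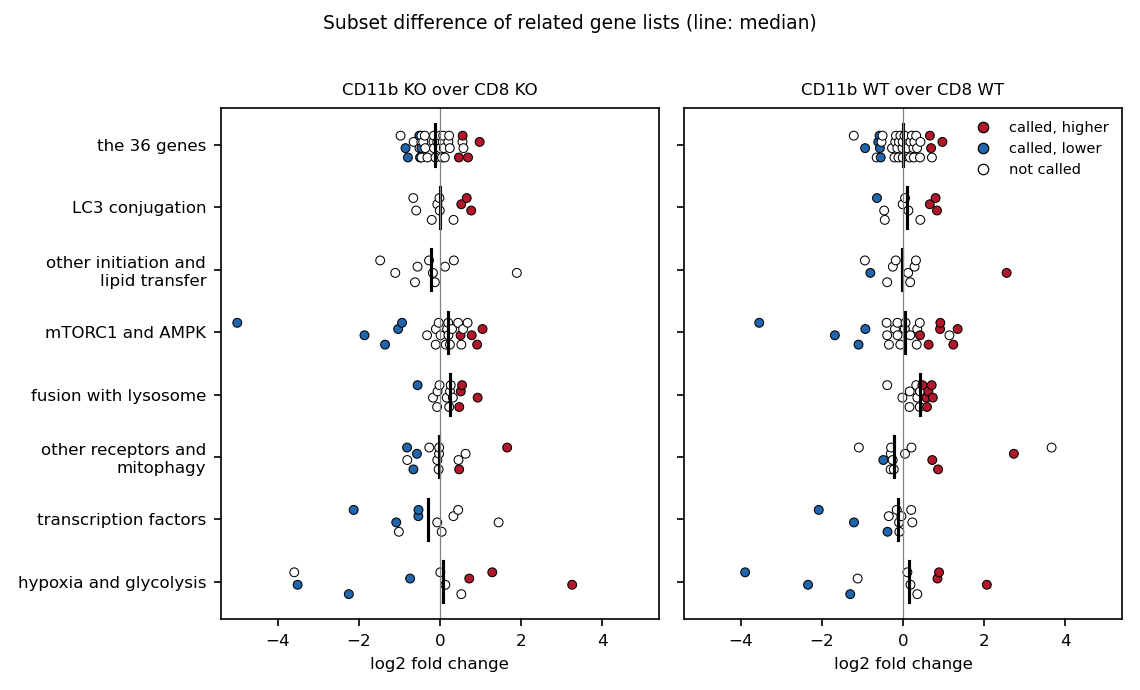
Log2 difference of the label CD11b over the label CD8 for the 36 genes and for each of the 7 related lists (a point for each gene tested, a bar at the list's median), in KO on the left and WT on the right. The 36 genes lie between −1.21 and 0.98, while the mTORC1 and AMPK list reaches −4.99 in KO and −3.55 in WT with Ddit4.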

How the data were processed

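Deposited files hold raw counts per gene made by the authors with STAR 2.5.0a on GRCm38, per the submitters' processing notes. The annotation release is not given in the sources used here. Counts of the strand column whose gene sum was 16.1 times that of the opposite strand were used, and 4 lines of reads given to no gene were left out (no-feature reads were 33.1% to 41.4% of reads and reads with several mapped places 21.7% to 25.5%). Symbols and positions came from GENCODE M21. CPM used TMM-scaled library sizes. Quasi-likelihood models with 4 group means were fitted in edgeR 4.0.16 to 14528 genes after filterByExpr (common dispersion 0.0862), with Benjamini-Hochberg adjustment over all genes, a call below 0.05, and 95% intervals from the fold change and its SE. The model was tested on simulated counts. DESeq2 1.42.0, limma-voom (limma 3.58.1), other scalings, filters and strand settings, left-out libraries and replicate blocks were alternatives. R 4.3.3, Python 3.11.15 and blastn 2.17.0 were used. The members, lists, tests and naming rule were chosen with earlier results of these data known. Members called in any comparison, or among the 3 smallest p in one, are given by library, other members by means, ranges and counts, and at most 4 genes a related list by smallest p. Libraries came from individual mice, carry no molecular identifiers, and intervals cover the spread between libraries. Aldoa, with 2 identifiers, was not used.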

Additional observations from a re-analysis of the deposited data

How the results depend on the processing

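The count of members called in KO against WT was 0 of 36 under every alternative run, at each label, for the average and for the difference of the KO effects. In WT, 8 to 11 members were called between the labels when 1 library was left out in turn, and in KO 4 to 10, while 25.2% to 29.8% of all genes were called in WT and 16.7% to 23.9% in KO. The value of 4 was that without CD8 KO 2, and 4 was also found without both CD11b WT 1, the library with the most genes detected, and CD8 KO 2, an alternative chosen after seeing the data. The other settings gave 8 to 10 in each genotype. Single genes were followed only where they were called in a comparison or among its 3 smallest p. Of their values, 572 kept their direction and their side of the threshold. Another 22 lost the call with the same direction, all in the KO comparison of the labels, and 0 reversed. Calls gained by other members were not part of this count.

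Same-numbered libraries of both labels were correlated at 0.018 to 0.049 in their deviations from the group means, and differently numbered ones of the same genotype at −0.041 to 0.012. The same-numbered values were all higher, but all were small. Deviations from a group mean cancel within the group, so these correlations are not independent of each other. In KO, with 2 libraries a group, they were 0.041 or −0.041 and differ in sign alone. Pairing by number was thus not settled, and the main fit did not use it. With the replicate number as a block, 9 members were called between the labels in KO and 9 in WT, and with a block within genotype 10 and 10. Of all 14528 genes, the block on the number called 3403 in KO and 4325 in WT. The block within genotype called 3564 and 4462, against 3312 and 4285 without a block. For the difference between the KO effects it called 28 genes, against 3. Among the members, the block on the number left 0 calls in each of the 4 KO comparisons. Over all genes it called 29 (label CD11b), 26 (label CD8), 41 (average KO effect) and 8 (difference of the KO effects).

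Low counts limit Wipi1, Bnip3, Atg4a and Gabarapl2 most, and 2 KO mice a group limit all intervals. For Bnip3 and Atg4a, reads shared with another locus were not counted.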

Other observations

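Around the 36 genes, some nutrient and energy controls of autophagy differed between the labels, in both directions. Of 24 mTORC1 and AMPK genes tested, 4 were higher and 5 lower at the label CD11b in KO, and 6 were higher and 4 lower in WT, where 22.8% of all genes were called in KO and 29.5% in WT. Ddit4, which encodes an inhibitor of mTORC1 induced by stress, had 0.404 and 0.583 CPM in CD11b KO, against 17.5 and 14.98 CPM in CD8 KO, and 1.52, 0.905 and 2.14 CPM in CD11b WT, against 17.7, 16.2 and 19.1 CPM in CD8 WT. Its log2 differences were −4.99 in KO (edgeR adjusted p = 3.58e-08) and −3.55 in WT (edgeR adjusted p = 2.23e-08). The sestrin genes Sesn2 (−1.35 in KO and −1.10 in WT, edgeR adjusted p = 2.71e-07 and 1.78e-07) and Sesn3 (−0.93 in both, edgeR adjusted p = 3.51e-05 and 1.53e-06), which also hold mTORC1 back, were lower. Rraga, a GTPase that brings mTORC1 to the lysosome, was higher (1.05 in KO and 1.24 in WT, edgeR adjusted p = 9.92e-05 and 5.77e-07).

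Of 10 hypoxia and glycolysis genes tested, 3 were higher and 3 lower at the label CD11b in each genotype, beside the same shares of all genes. Vegfa, the vascular growth factor, had 37.7 and 18.8 CPM in CD11b KO, against 379 and 259 CPM in CD8 KO (log2 difference −3.51, edgeR adjusted p = 2.36e-11), and −3.89 in WT (edgeR adjusted p = 6.8e-14). Slc2a1, the glucose transporter GLUT1, was lower too (−2.24 in KO and −2.34 in WT, edgeR adjusted p = 2.08e-06 and 3.53e-08), while Ldha, lactate dehydrogenase, was higher (0.73 in KO and 0.89 in WT, edgeR adjusted p = 0.000672 and 3.48e-06). Of the mitophagy receptor genes among the 36, which are known for roles in hypoxia, Fundc1 was called higher and Bnip3 and Bnip3l were not called.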
